A study of Sus scrofa with 12 samples.

Results

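The genes described here encode the cytosolic translation initiation and elongation factors of the pig (Sus scrofa), with a few of their regulators. They were chosen by symbol. Members are the genes whose symbol begins with EIF1 to EIF6 or with EEF1 or EEF2, without the EIF2AK kinases, plus the kinases MKNK1 and MKNK2. The rule found 55 genes among the 31781 gene identifiers of the table, of which 15347 could be paired with a symbol. Of the 55 members, 52 passed the filter on low values and were tested among 9411 genes. RNA was measured in pig blastocysts made by parthenogenetic activation, in which an egg develops without sperm. The table holds 11 libraries: 3 of vitrification II, 3 of vitrification I, 2 of vitrification and 3 of fresh control, the group that was not vitrified. Vitrification is cooling so fast that water turns to glass instead of ice. All of these embryos are parthenogenetic, controls included. The title of the series speaks of cooling in liquid helium, but the labels do not give which group received it or how the vitrified procedures differed, nor do they give strain, embryo age or the number of embryos behind a library. The source of every library is named as blastocyst, while the protocol describes single cells that were sorted and then taken through Smart-Seq2, which makes full-length cDNA and amplifies it from tiny inputs.

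Cytosolic translation starts when eIF4E binds the cap of an mRNA. With the scaffold eIF4G and the helicase eIF4A it forms eIF4F. The large complex eIF3 joins the mRNA to the small ribosomal subunit, which carries initiator tRNA on eIF2, and eIF1, eIF1A and eIF5 act in choosing the start codon. The 4E-binding proteins (EIF4EBP genes) compete with eIF4G for eIF4E, and the MNK kinases (MKNK1 and MKNK2) phosphorylate eIF4E. In elongation, eEF1A delivers aminoacyl-tRNA and eEF2 moves the ribosome along by a codon. An early mammalian embryo first lives on mRNA stored in the egg, and by the blastocyst stage it relies on transcripts of its own genome. The values below are mRNA levels and do not measure the proteins, their phosphorylation or the rate of translation.

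Levels are FPKM, fragments scaled to the length of the gene and to the number of mapped fragments, so they can be compared between genes. Sequencing depth is unknown, since no counts are in the table. The share of FPKM from mitochondrially encoded mRNA differed between libraries, at 16.9 to 22.1% in vitrification II, 43.9 to 64.3% in vitrification I, 38.8 to 51.8% in vitrification and 37.6 to 43.9% in fresh control. Genes above 0 numbered 15415 to 16204 in vitrification II, 11550 to 14039 in vitrification I, 17726 to 18527 in vitrification and 15383 to 16046 in fresh control. Within vitrification I, replicate 2 had the most genes above 0, and replicates 1 and 3 had the highest mitochondrial shares of all 11 libraries. The trophectoderm is the outer epithelium of the blastocyst, and 14 of the 15 markers listed for it had a symbol and passed the filter, led by the keratin genes KRT8 and KRT18. Their summed FPKM was 14494 to 22796 in vitrification II, 2807 to 6146 in vitrification I, 7114 to 17701 in vitrification and 10813 to 16225 in fresh control. In vitrification I 7 of the 14 fell and 1 rose, where 9.77% and 8.85% of all genes did, and in vitrification II 4 rose, where 24.6% of all genes did. Markers of the inner cell mass and epiblast were weaker, at 43.5 to 102 in vitrification II, 2.16 to 6.87 in vitrification I, 9.0 to 25.6 in vitrification and 9.72 to 13.7 in fresh control in summed FPKM, and of the 4 tested 3 rose in vitrification II and 1 fell in vitrification I. Hypoblast markers summed to 37.8 to 63.4 in vitrification II, 21.4 to 38.0 in vitrification I, 26.8 to 98.5 in vitrification and 27.1 to 42.1 in fresh control, and 2 of the 4 tested rose in vitrification II. POU5F1 and SOX2 were not analysed here. Cumulus and granulosa markers summed to at most 2.80 FPKM in any library, and none of the 7 with a symbol passed the filter. Of 7 leukocyte and erythroid markers 3 passed it, with a sum of at most 20.2 FPKM, and PTPRC, CSF1R and ALAS2 were listed at 0 in every library. The part of these shares and marker levels in the results below was not tested. Fewer cells of a type and less RNA per cell cannot be told apart in such libraries.

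The members together held 1.14 to 1.26% in vitrification II, 0.883 to 0.978% in vitrification I, 0.994 to 1.01% in vitrification and 0.87 to 1.05% in fresh control of the FPKM outside the mitochondrial genome. As a share of all FPKM they held 0.947 to 0.987% in vitrification II, 0.316 to 0.526% in vitrification I, 0.486 to 0.609% in vitrification and 0.543 to 0.6% in fresh control. Vitrification II was thus above the other groups on both scales, and vitrification I lay below fresh control on the second only. In fresh control the members with the highest mean levels were EIF4A1 (486 FPKM), EIF1 (482 FPKM), EEF1B2 (327 FPKM) and EIF4A2 (291 FPKM). Among the members tested EEF1AKMT3, EEF2K, EIF4E3, EIF4ENIF1, EIF4G3 and EIF5A2 stayed below an FPKM of 1 in every control library.

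Differences are given as log2(FPKM + 1) of the first group minus that of the second ± SE from limma, relative to the median of all genes tested. That median lay 0.62 higher in vitrification II than in fresh control, 0.68 higher in vitrification II than in vitrification I, 0.19 higher in vitrification than in fresh control, and at -0.064 in vitrification I against fresh control. The tests were made on the fitted change, which is the value given plus this shift, and a gene was called at a Benjamini-Hochberg adjusted p under 0.05. In vitrification II against fresh control 11 members rose and 1 fell, where 24.6% and 1.09% of all genes did (23.1% of members and 25.7% of all genes in either direction). In vitrification I against fresh control 6 rose and 9 fell, where 8.85% and 9.77% of all genes did (28.8% and 18.6%). In vitrification against fresh control 3 rose and 0 fell (limma, with 11 at an unadjusted p under 0.05 in either direction), where 1.25% and 0.117% did (5.77% and 1.37%). Vitrification II against vitrification I gave 26 members higher and 2 lower, where 34.7% and 3.75% of all genes were called (53.8% and 38.4%). By the F test for any difference among the 4 groups 26 members were called, 50% of them against 42.7% of all genes. The share of members called against fresh control in vitrification II was thus no higher than that of all genes. The relative median of the members was -0.10, -0.16 and -0.14 against fresh control in vitrification II, vitrification I and vitrification, and 0.23 in vitrification II against vitrification I, where that of all genes is 0 by definition. After quantile normalization the fitted median of the members lay above that of all genes, at 0.054 against -0.028 in vitrification II and at 0.0087 against -0.048 in vitrification, both over fresh control. The comparisons against fresh control share the same 3 control libraries.

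**Figure D1:**
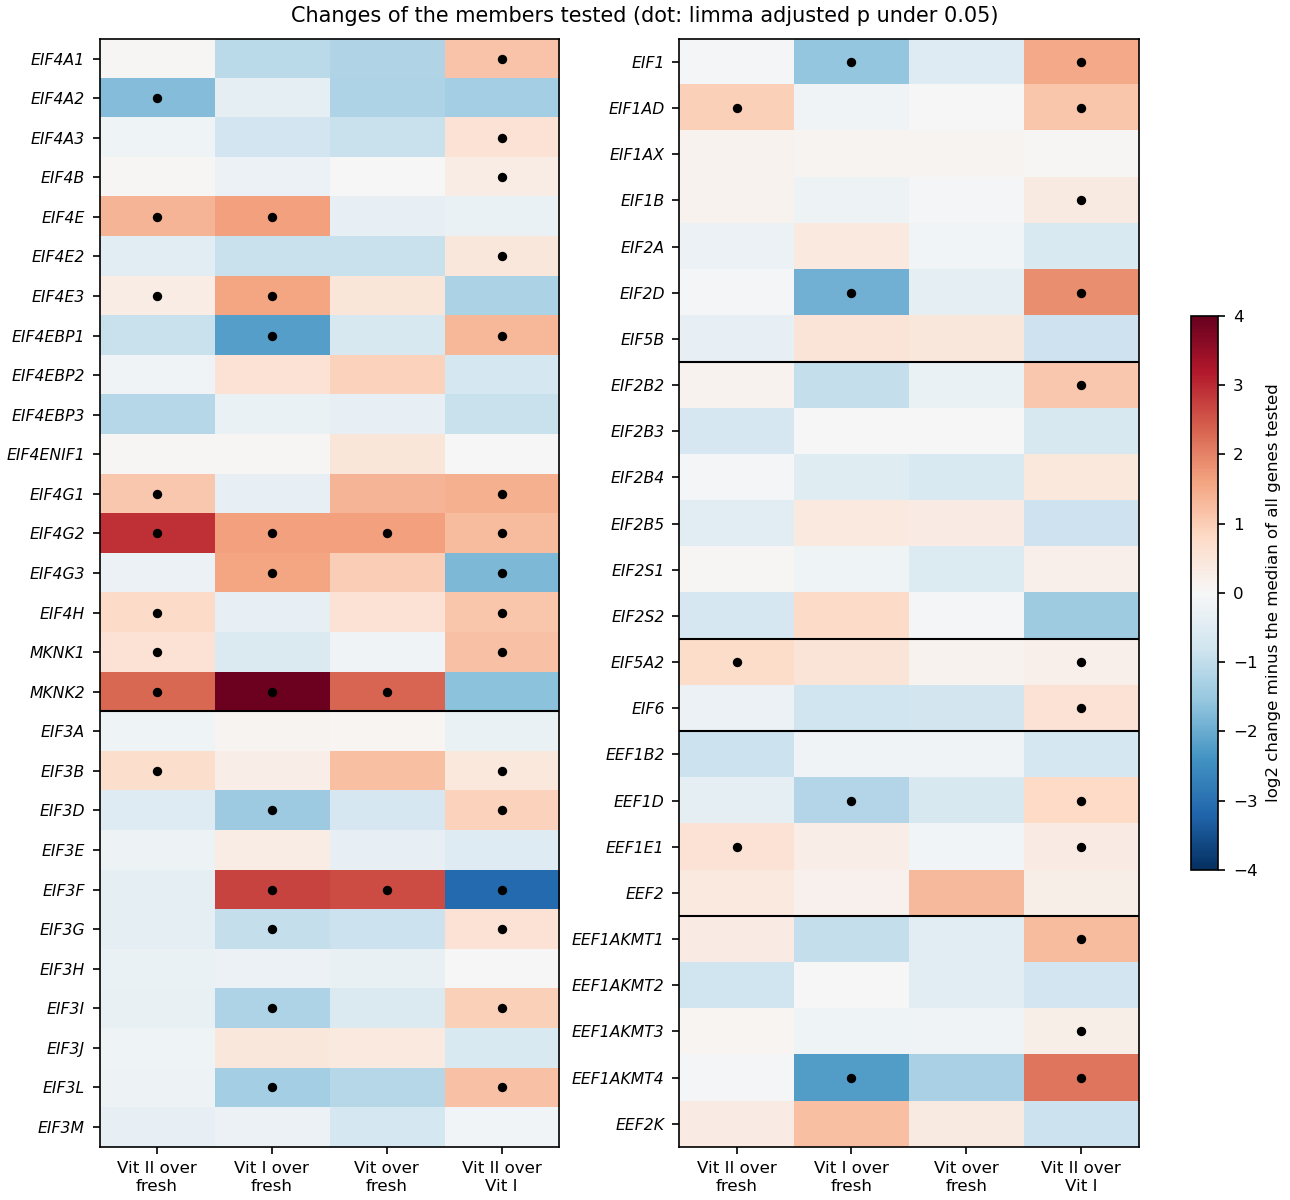
Log2 change relative to the median of all genes tested (colour) for the 52 members tested, in rows by role, with the comparisons in columns; lines part the roles and dots mark limma calls. EIF4G2 and MKNK2 are called in all 3 comparisons against fresh control, while the column of vitrification II over vitrification I holds the most dots (28 members).

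Of the 52 members tested 32 were called in at least 1 of the 4 comparisons, 61.5% against 52.2% of all genes. EIF4G2 and MKNK2 were called in each comparison against fresh control, as were 0.414% of all genes. Scaling bore on the number of calls, of members and of all genes alike. Besides the values as deposited, 3 scalings were run: equal totals outside the mitochondrial genome, quantile normalization and equal medians. For vitrification II against fresh control they gave 7 members higher and 1 lower, 3 and 1, and 2 and 2, while the share of all genes called in either direction was 13.9%, 7.18% and 10.7%. EEF1E1, EIF3B, EIF4E3 and MKNK1 lost their call in this comparison under all 3, and EIF4A2, EIF4G2 and MKNK2 were called under all 3. EIF1AD, EIF4G1, EIF4H and EIF5A2 lost theirs after quantile normalization and with equal medians (adjusted p = 0.0727 to 0.321). EIF4E lost its call with equal medians only (adjusted p = 0.113). For vitrification I against fresh control the scalings gave 8 higher and 5 lower, 7 and 8, and 6 and 13, with 19.8%, 22.3% and 21.4% of all genes called. EEF1D, EIF3D, EIF3G and EIF3I were not called there with equal totals, nor EEF1D and EIF3G after quantile normalization. For vitrification II against vitrification I they gave 14 higher and 5 lower, 14 and 10, and 9 and 9, with 24%, 28.1% and 28.1% of all genes called. There 11 of the 28 calls remained with equal medians, those of EEF1AKMT1, EEF1AKMT4, EIF1, EIF1AD, EIF2D, EIF3F, EIF3L, EIF4G1, EIF4G2, EIF4G3 and EIF4H, and all 11 also remained under the other scalings. In vitrification against fresh control EIF3F alone of the 3 was called with equal medians, when 0.659% of all genes were.

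Vitrification I was also represented by its replicate 2 alone, chosen after seeing the data. A single library brings no spread of its own, which was then taken from the other groups, and all-gene calls were 242 in vitrification I against fresh control and 785 in vitrification II against vitrification I. EIF3F, EIF4G2 and MKNK2 were called in the first of these, and EIF1AD, EIF3F, EIF3L, EIF4G2 and EIF4H in the second. Changes whose call was lost were not all smaller than with 3 libraries: in vitrification I against fresh control EIF3D stood at -1.64 and EEF1D at -1.46, against -1.45 ± 0.34 and -1.16 ± 0.33. In vitrification II against vitrification I EIF1 stood at 1.14 (adjusted p = 0.0509), against 1.50 ± 0.36. The fitted change behind each of the 58 calls kept its sign under every alternative run in which the gene was tested. Relative to the median of all genes, EEF1AKMT3 in vitrification II against vitrification I turned to -0.063 with replicate 2 alone, and MKNK1 in vitrification II against fresh control to -0.013 with libraries weighted by their spread.

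The group of cap binding, eIF4F and its regulators had 17 members tested. Against fresh control 7 rose and 1 fell in vitrification II (all genes 24.6% and 1.09%). In vitrification I 5 rose and 1 fell (8.85% and 9.77%), and in vitrification 2 rose (1.25%). The group held EIF4G2, the member with the largest rise in vitrification II, and MKNK2, the one with the largest rise in vitrification I. EIF4G2 (ENSSSCG00000013405) encodes DAP5, an eIF4G relative that lacks the eIF4E-binding region and serves translation that does not go through eIF4E. It had 268, 302 and 234 FPKM in vitrification II, 69.5, 79.5 and 56.6 in vitrification I, 77.4 and 82.4 in vitrification, and 23.4, 16.6 and 27.4 in fresh control. Every vitrified library lay above every control library, and the vitrification II libraries lay above those of the other vitrified groups. The changes against fresh control were 2.92 ± 0.32 (adjusted p = 3.64e-05) in vitrification II, 1.65 ± 0.32 (adjusted p = 0.0045) in vitrification I and 1.63 ± 0.36 (adjusted p = 0.0283) in vitrification, and vitrification II exceeded vitrification I by 1.28 ± 0.32 (adjusted p = 0.000421). The call in vitrification ended without vitrification replicate 1 or 2, or control 2 or 3 (adjusted p = 0.0529 to 0.305).

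Vitrified groups also differed in EIF4G1 (ENSSSCG00000030255), the main eIF4F scaffold, which had 37.3, 26.9 and 27.7 FPKM in vitrification II, 4.65, 9.87 and 5.42 in vitrification I, 26.8 and 27.4 in vitrification, and 6.54, 8.95 and 11.2 in fresh control. Levels in vitrification II and vitrification lay above those of fresh control without overlap, while vitrification I overlapped fresh control. EIF4G1 rose by 1.07 ± 0.36 (adjusted p = 0.00496) in vitrification II against fresh control and by 1.41 ± 0.36 (adjusted p = 0.00057) against vitrification I. The call against fresh control ended after quantile normalization and with equal medians (adjusted p = 0.103 and 0.129). In vitrification the change was 1.34 ± 0.40 and was not called (adjusted p = 0.0659), though it was with equal totals outside the mitochondrial genome, without the filter or with libraries weighted by their spread (adjusted p = 0.0418 to 0.0443). In vitrification I it was -0.34 ± 0.36 (adjusted p = 0.463). EIF4G3, another eIF4G gene, stood at 2.34, 0.288 and 1.01 FPKM in vitrification II, 4.00, 2.94 and 3.56 in vitrification I, 1.48 and 3.94 in vitrification, and 0.544, 0.441 and 0.71 in fresh control. It was high in vitrification I relative to vitrification II and fresh control, with changes of 1.59 ± 0.39 (adjusted p = 0.014) in vitrification I against fresh control and -1.81 ± 0.39 (adjusted p = 0.0314) in vitrification II against vitrification I. These calls on a low-level gene ended without control 2 (adjusted p = 0.0589) for the first and without vitrification II replicate 2 or 3, or vitrification I replicate 1 or 3 (adjusted p = 0.0697 to 0.156) for the second.

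EIF4E (ENSSSCG00000028420), the cap-binding protein itself, had 72.5, 191 and 82.3 FPKM in vitrification II, 111, 63.9 and 68.8 in vitrification I, 17.9 and 29.8 in vitrification, and 32.6, 30.6 and 17.1 in fresh control. All libraries of vitrification II and vitrification I lay above all of fresh control, whereas vitrification overlapped it. The rise was 1.36 ± 0.43 (adjusted p = 0.00515) in vitrification II and 1.64 ± 0.43 (adjusted p = 0.0196) in vitrification I, and the difference between these groups was -0.28 ± 0.43 (adjusted p = 0.475). In vitrification the change was -0.34 ± 0.48 (adjusted p = 0.906). The vitrification I call ended without vitrification I replicate 1, or control 3 (adjusted p = 0.0872 to 0.0986). EIF4E3, a distant relative of eIF4E, stayed low, with 1.07, 1.03 and 1.52 FPKM in vitrification II, 3.55, 1.28 and 2.51 in vitrification I, 0.802 and 0.911 in vitrification, and 0.1, 0.201 and 0.164 in fresh control. Its rise of 1.59 ± 0.31 (adjusted p = 0.00454) in vitrification I was called, as was that of 0.31 ± 0.31 (adjusted p = 0.039) in vitrification II, where the call ended without vitrification II replicate 1, 2 or 3, or control 1, 2 or 3 (adjusted p = 0.0703 to 0.12). EIF4E2, a cap-binding relative that acts in repression, ranged from 3.97 to 22.2 FPKM and was called in vitrification II against vitrification I, at 0.44 ± 0.39 (adjusted p = 0.0349). That call ended without vitrification II replicate 1, 2 or 3, or vitrification I replicate 1 or 3 (adjusted p = 0.0604 to 0.135).

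EIF4EBP1 (ENSSSCG00000022301), the 4E-binding protein best known as a target of the kinase mTORC1, went the other way from EIF4E in vitrification I. It had 93.8, 75.5 and 72.4 FPKM in vitrification II, 13.7, 43.7 and 11.4 in vitrification I, 113 and 43.5 in vitrification, and 60.6, 139 and 106 in fresh control. Replicates 1 and 3 of vitrification I were the lowest of all libraries, and replicate 2, at 43.7 FPKM, was close to vitrification replicate 2. The change in vitrification I against fresh control was -2.21 ± 0.50 (adjusted p = 0.00715), and vitrification II was higher than vitrification I by 1.33 ± 0.50 (adjusted p = 0.00604). With replicate 2 as the single vitrification I library these values were -1.32 and 0.42, neither called (adjusted p = 0.316 and 0.37). Without the filter the calls of EIF4EBP1 in vitrification I against fresh control and in vitrification II against vitrification I also ended (adjusted p = 0.0635 and 0.0533). Vitrification II did not pass the test against fresh control (-0.89 ± 0.50, adjusted p = 0.712), nor did vitrification (-0.64 ± 0.56, adjusted p = 0.715). EIF4EBP2, a second gene of this kind, had 10.6, 6.38 and 11.7 FPKM in vitrification II, 9.22, 14.4 and 6.41 in vitrification I, 12.1 and 17.8 in vitrification, and 5.97, 7.81 and 5.44 in fresh control, and no comparison was called (adjusted p = 0.178 to 0.951). EIF4EBP3 ranged from 12.9 to 37.2 FPKM and was not called either (adjusted p = 0.364 to 0.902).

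Of the kinases of eIF4E, MKNK2 was called in every comparison with fresh control and MKNK1 in 1. MKNK2 (ENSSSCG00000013448) had 10.4, 14.9 and 22.7 FPKM in vitrification II, 35.5, 24.2 and 33.9 in vitrification I, 15.1 and 8.46 in vitrification, and 1.94, 0.729 and 1.02 in fresh control. Every vitrified library lay above every control library, and vitrification I lay above the other vitrified groups. The changes against fresh control were 2.28 ± 0.39 (adjusted p = 0.000382) in vitrification II, 3.93 ± 0.39 (adjusted p = 5.65e-05) in vitrification I and 2.32 ± 0.44 (adjusted p = 0.0182) in vitrification. The change in vitrification II against vitrification I was -1.65 ± 0.39, short of the threshold (adjusted p = 0.0625). It passed without vitrification II replicate 3 or vitrification I replicate 2 (adjusted p = 0.0438 to 0.0461), and under each of the 3 other scalings (adjusted p = 0.0069 to 0.0119). The vitrification call ended without vitrification replicate 1 or 2, or control 2 or 3 (adjusted p = 0.058 to 0.117). MKNK1 (ENSSSCG00000003898) had 23.5, 26.0 and 24.1 FPKM in vitrification II, 3.48, 9.19 and 6.68 in vitrification I, 12.3 and 8.93 in vitrification, and 5.68, 9.54 and 18.0 in fresh control. Its vitrification II libraries lay close together and above all the rest. The rise was 0.59 ± 0.42 (adjusted p = 0.0471) against fresh control and 1.17 ± 0.42 (adjusted p = 0.00365) against vitrification I. The call against fresh control ended without vitrification II replicate 1, 2 or 3, or vitrification replicate 1 or 2, or control 1 or 2 (adjusted p = 0.0552 to 0.141).

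The eIF4A helicases unwind the mRNA leader, and EIF4A1 and EIF4A2 encode closely related proteins. EIF4A1 (ENSSSCG00000017957) had 714, 1054 and 604 FPKM in vitrification II, 267, 308 and 127 in vitrification I, 295 and 192 in vitrification, and 585, 425 and 448 in fresh control. In FPKM vitrification II lay above fresh control, and vitrification I and vitrification lay below it. The relative change against fresh control was 0.053 ± 0.38 in vitrification II (adjusted p = 0.204) and -1.20 ± 0.43 in vitrification (adjusted p = 0.218), neither called. Vitrification II exceeded vitrification I by 1.13 ± 0.38 (adjusted p = 0.00226). The change in vitrification I against fresh control missed the threshold (-1.07 ± 0.38, adjusted p = 0.0507), but passed it without vitrification I replicate 2 or either vitrification library (adjusted p = 0.0275 to 0.0499) and with equal medians (adjusted p = 0.0441). EIF4A2 (ENSSSCG00000011803) had 147, 94.9 and 155 FPKM in vitrification II, 221, 189.9 and 216 in vitrification I, 132 and 141 in vitrification, and 208, 298 and 368 in fresh control. All libraries of vitrification II and vitrification lay below all of fresh control, and vitrification I overlapped fresh control. In vitrification the change of -1.24 ± 0.37 was not called (adjusted p = 0.144). EIF4A2 was the single member that fell in vitrification II against fresh control, at -1.75 ± 0.33 (adjusted p = 0.023), and the call ended without vitrification II replicate 2, or control 2 or 3 (adjusted p = 0.0867 to 0.118). Against vitrification I its change was -1.37 ± 0.33 (adjusted p = 0.115). EIF4A3, a helicase of the exon junction complex, had 108, 87.6 and 81.7 FPKM in vitrification II, 27.2, 50.8 and 38.1 in vitrification I, 31.6 and 52.8 in vitrification, and 71.0, 67.4 and 65.0 in fresh control. It was higher in vitrification II than in vitrification I by 0.59 ± 0.34 (adjusted p = 0.00966), a call that ended without vitrification I replicate 1 (adjusted p = 0.0513).

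EIF4H and EIF4B encode cofactors that stimulate eIF4A. EIF4H (ENSSSCG00000025966) had 85.7, 59.9 and 55.0 FPKM in vitrification II, 18.9, 21.7 and 14.7 in vitrification I, 44.9 and 40.1 in vitrification, and 29.0, 20.3 and 24.3 in fresh control. All vitrification II libraries exceeded all others, and the rise was 0.78 ± 0.33 (adjusted p = 0.00844) against fresh control and 1.11 ± 0.33 (adjusted p = 0.000921) against vitrification I. EIF4B had 94.0, 89.6 and 88.0 FPKM in vitrification II, 40.1, 58.3 and 40.1 in vitrification I, 65.4 and 65.7 in vitrification, and 58.4, 52.0 and 59.6 in fresh control. Its relative change in vitrification II over vitrification I was small, 0.30 ± 0.31 (adjusted p = 0.0209), and the call ended without vitrification II replicate 1, 2 or 3, or vitrification I replicate 1 (adjusted p = 0.0527 to 0.0742). EIF4ENIF1, which carries eIF4E into the nucleus and to sites of mRNA decay, ranged from 0 to 1.76 FPKM and was not called (adjusted p = 0.103 to 0.99).

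**Figure D2:**
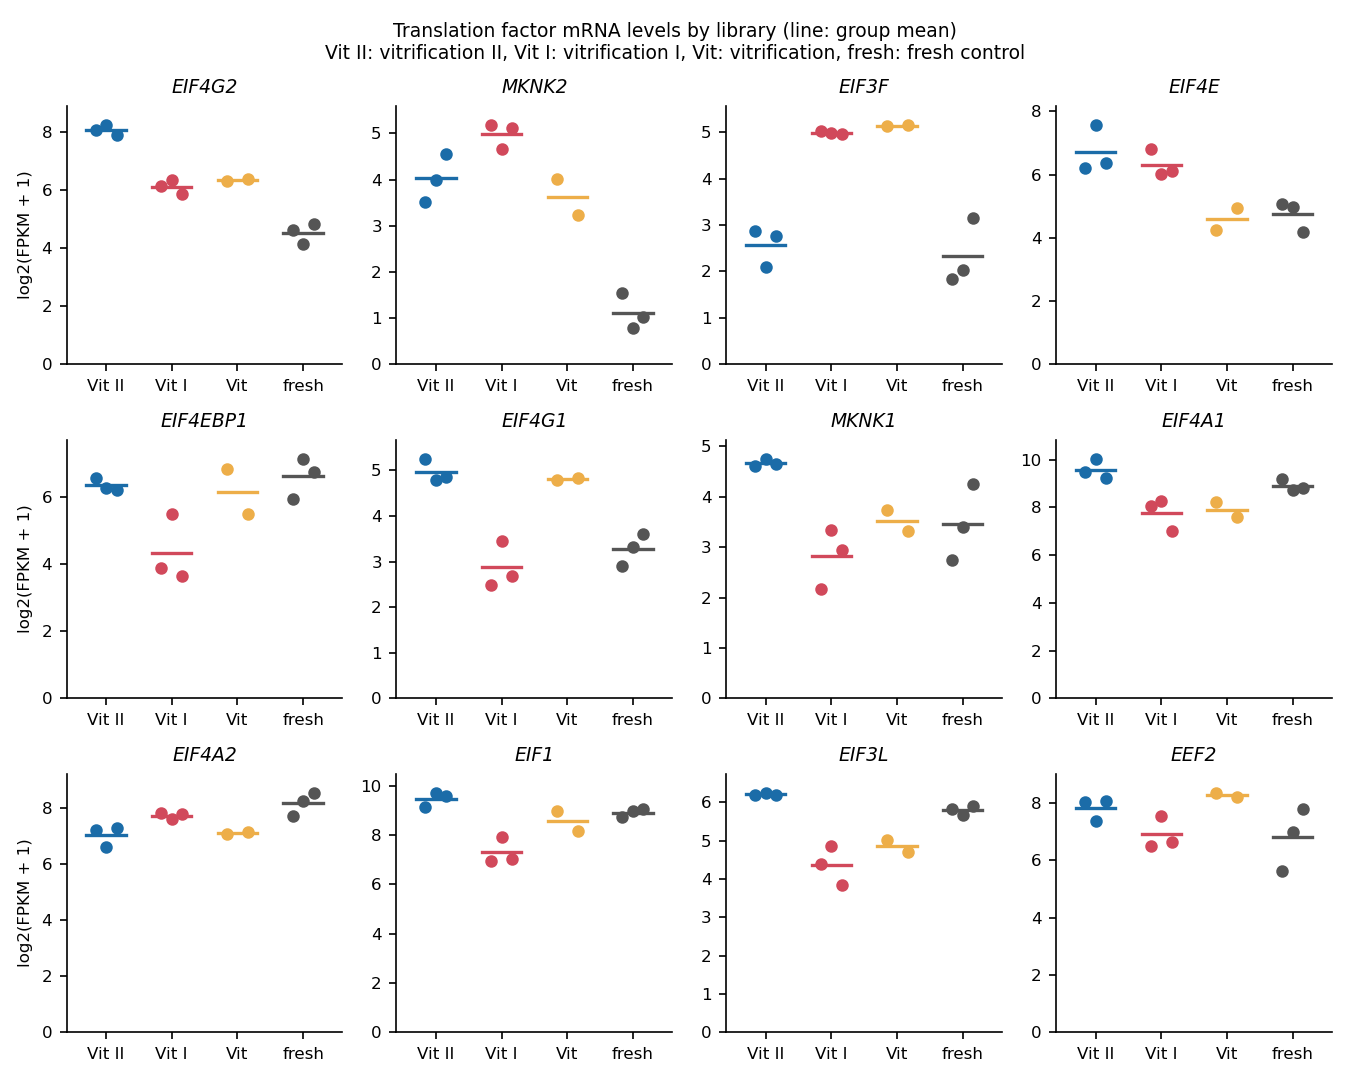
Log2(FPKM + 1) of 12 members in each of the 11 libraries (points), with the mean of the group (line), for vitrification II, vitrification I, vitrification and fresh control. EIF4G2 and MKNK2 are higher in every vitrified library than in any control library, and EIF3F is high in vitrification I and vitrification and low in vitrification II and fresh control.

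Ratios between members within a library do not change when all FPKM of that library are multiplied by the same factor. Quantile normalization and equal medians, which act on log2(FPKM + 1), can change them. They were chosen after the levels were seen and are given without a test. The ratio of MKNK2 to MKNK1 was 0.445, 0.575 and 0.941 in vitrification II, 10.2, 2.63 and 5.08 in vitrification I, 1.23 and 0.947 in vitrification, against 0.341, 0.0764 and 0.0571 in fresh control. MKNK2 was thus the higher of the pair in all vitrification I libraries and the lower in all control libraries. EIF4EBP1 relative to EIF4E stood at 1.29, 0.396 and 0.88 in vitrification II, 0.124, 0.684 and 0.166 in vitrification I, 6.33 and 1.46 in vitrification, against 1.86, 4.56 and 6.22 in fresh control. It was below 1 in every vitrification I library and above 1 in every vitrification and fresh control library. For EIF4G2 over EIF4G1 the ratio was 7.21, 11.2 and 8.45 in vitrification II, 14.9, 8.05 and 10.4 in vitrification I, 2.89 and 3.01 in vitrification, against 3.57, 1.85 and 2.44 in fresh control. Vitrification II and vitrification I lay above the other groups in this ratio without overlap. EIF4A1 over EIF4A2 came to 4.84, 11.1 and 3.90 in vitrification II, 1.21, 1.62 and 0.587 in vitrification I, 2.23 and 1.37 in vitrification, against 2.82, 1.43 and 1.22 in fresh control, so that vitrification II stood above the other groups.

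**Figure D3:**
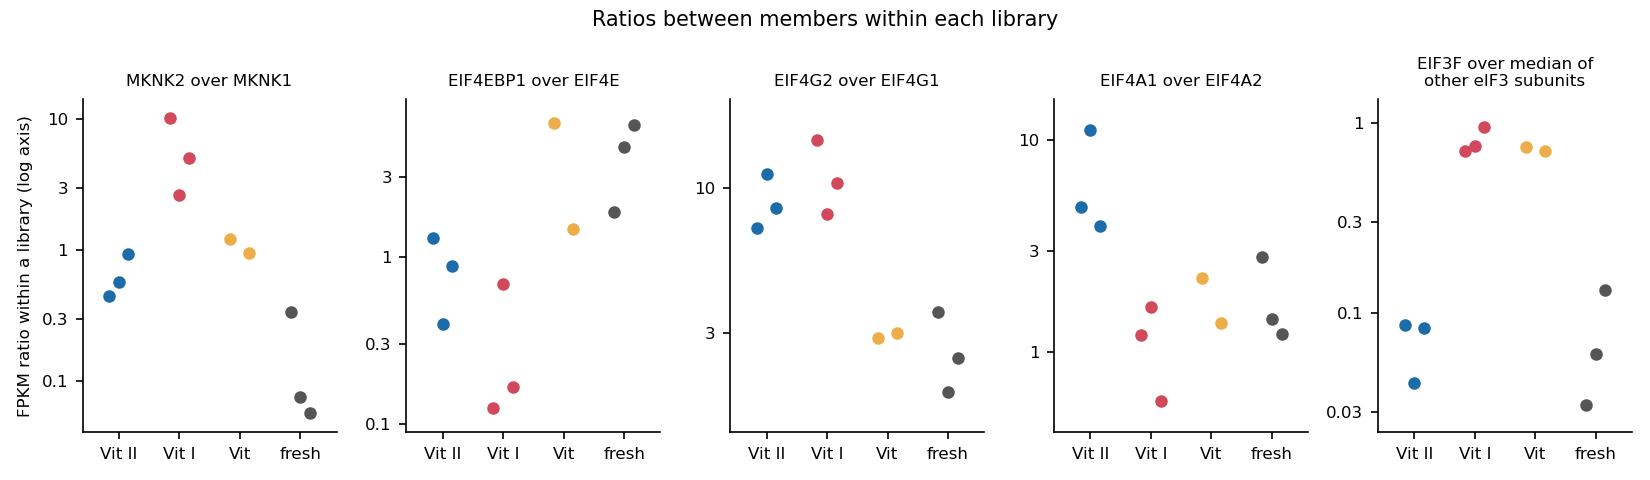
Ratio of the FPKM of named members within each library (points, log axis) for vitrification II, vitrification I, vitrification and fresh control. MKNK2 over MKNK1 is lowest in fresh control, EIF4EBP1 over EIF4E is below 1 in all vitrification I libraries, and EIF3F over the median of the other eIF3 subunits is high in vitrification I and vitrification.

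The eIF3 complex had 11 subunits tested. Against fresh control 1 rose in vitrification II (all genes 24.6%), 1 rose and 4 fell in vitrification I (8.85% and 9.77%), and 1 rose in vitrification (1.25%). In vitrification II against vitrification I, 5 were higher and 1 was lower (all genes 34.7% and 3.75%). EIF3F (ENSSSCG00000039647), a subunit with a deubiquitinase-like fold, parted from the rest. It had 6.26, 3.30 and 5.78 FPKM in vitrification II, 31.7, 30.4 and 30.0 in vitrification I, 33.8 and 34.7 in vitrification, and 2.58, 3.07 and 7.83 in fresh control. The 5 libraries of vitrification I and vitrification lay between 30.0 and 34.7 FPKM, and the 6 others did not exceed 7.83 FPKM. EIF3F rose by 2.72 ± 0.39 (adjusted p = 0.000726) in vitrification I and by 2.62 ± 0.44 (adjusted p = 0.0129) in vitrification, and was lower in vitrification II than in vitrification I, at -3.09 ± 0.39 (adjusted p = 0.000385). In vitrification II against fresh control the change was -0.38 ± 0.39 (adjusted p = 0.666). The vitrification call ended without vitrification replicate 2, or control 2 (adjusted p = 0.0761 to 0.169). Relative to the median of the other 10 subunits of the same library, EIF3F was 0.0862, 0.0427 and 0.0829 in vitrification II, 0.714, 0.756 and 0.962 in vitrification I, 0.746 and 0.718 in vitrification, against 0.0327, 0.0607 and 0.132 in fresh control.

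EIF3L, EIF3D, EIF3I and EIF3G fell in vitrification I against fresh control. EIF3L (ENSSSCG00000000119), a peripheral subunit, had 72.1, 74.9 and 71.9 FPKM in vitrification II, 19.8, 28.1 and 13.3 in vitrification I, 31.2 and 24.8 in vitrification, and 55.2, 50.0 and 58.3 in fresh control. In FPKM vitrification I and vitrification lay below all control libraries and vitrification II above them. The relative change against fresh control was -0.20 ± 0.34 in vitrification II (adjusted p = 0.369) and -1.13 ± 0.38 in vitrification (adjusted p = 0.19), neither called. The change was -1.37 ± 0.34 (adjusted p = 0.0101) in vitrification I, and vitrification II exceeded vitrification I by 1.17 ± 0.34 (adjusted p = 0.000822). EIF3D, a subunit that can itself bind the cap of some mRNAs, had 92.0, 60.7 and 56.8 FPKM in vitrification II, 20.4, 22.8 and 22.2 in vitrification I, 40.3 and 50.5 in vitrification, and 88.8, 51.4 and 57.1 in fresh control. The 3 vitrification I libraries were the lowest, with changes of -1.45 ± 0.34 (adjusted p = 0.0081) against fresh control and 0.92 ± 0.34 (adjusted p = 0.00231) for vitrification II over vitrification I. EIF3I, of the module that also holds EIF3B and EIF3G, had 126, 149 and 177 FPKM in vitrification II, 58.5, 59.7 and 30.3 in vitrification I, 131 and 62.0 in vitrification, and 111, 104 and 142 in fresh control. It changed by -1.24 ± 0.38 (adjusted p = 0.0274) in vitrification I against fresh control, a call that ended without vitrification I replicate 3, or control 2 or 3 (adjusted p = 0.0621 to 0.11), and by 0.95 ± 0.38 (adjusted p = 0.00399) in vitrification II against vitrification I. EIF3G, an RNA-binding subunit, had 153, 116 and 107 FPKM in vitrification II, 43.5, 72.5 and 43.2 in vitrification I, 80.2 and 54.3 in vitrification, and 117, 98.7 and 101 in fresh control. Its calls were -0.96 ± 0.34 (adjusted p = 0.0469) in vitrification I against fresh control and 0.57 ± 0.34 (adjusted p = 0.00971) in vitrification II against vitrification I, and the first ended without vitrification II replicate 1, 2 or 3, or vitrification I replicate 1 or 3, or control 1, 2 or 3 (adjusted p = 0.0581 to 0.15).

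EIF3B, a scaffold subunit, was listed at low levels, with 12.3, 6.20 and 3.84 FPKM in vitrification II, 3.32, 2.76 and 1.81 in vitrification I, 5.76 and 8.88 in vitrification, and 2.82, 2.08 and 1.57 in fresh control. Vitrification II and vitrification lay above all libraries of fresh control. In vitrification the change of 1.21 ± 0.46 was not called (adjusted p = 0.117). Vitrification II rose against fresh control by 0.69 ± 0.41 (adjusted p = 0.0293) and against vitrification I by 0.43 ± 0.41 (adjusted p = 0.0419). These calls ended without vitrification II replicate 1 or 2, or control 2 or 3 (adjusted p = 0.0606 to 0.136) for the first and without vitrification II replicate 1 or 2, or vitrification I replicate 1, 2 or 3, or control 2 or 3 (adjusted p = 0.0535 to 0.204) for the second. EIF3A, the largest subunit, was not called, with 44.3, 54.5 and 62.2 FPKM in vitrification II, 45.3, 41.8 and 32.2 in vitrification I, 34.1 and 62.1 in vitrification, and 45.4, 29.2 and 42.3 in fresh control (adjusted p = 0.336 to 0.953). The other subunits, EIF3E, EIF3H, EIF3J and EIF3M, ranged from 8.45 to 109 FPKM and were not called in any of the 4 comparisons.

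The list of start codon selection and related initiation steps had 7 genes tested, among them EIF1AD. Against fresh control 1 rose in vitrification II (EIF1AD, all genes 24.6%) and 2 fell in vitrification I (9.77%). In vitrification 0 were called (limma, 0 at an unadjusted p under 0.05). In vitrification II 4 were higher than in vitrification I (34.7%). EIF1 (ENSSSCG00000017430), the gatekeeper of start codon choice, had 565, 840.4 and 759 FPKM in vitrification II, 123, 239 and 129 in vitrification I, 505 and 285 in vitrification, and 424, 495 and 527 in fresh control. All vitrification I libraries lay below all others, and vitrification II lay above all control libraries. It changed by -1.55 ± 0.36 (adjusted p = 0.00726) in vitrification I against fresh control and by 1.50 ± 0.36 (adjusted p = 0.000407) in vitrification II against vitrification I. In vitrification II against fresh control its relative change was -0.054 ± 0.36 (adjusted p = 0.25). EIF1B, a close copy of EIF1, had 31.5, 40.3 and 65.1 FPKM in vitrification II, 20.0, 24.0 and 18.3 in vitrification I, 35.5 and 20.7 in vitrification, and 25.8, 24.8 and 24.8 in fresh control. It was called in vitrification II against vitrification I at 0.36 ± 0.36 (adjusted p = 0.0316), which ended without vitrification II replicate 2 or 3, or vitrification I replicate 1 or 3 (adjusted p = 0.0642 to 0.154).

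EIF1AD (ENSSSCG00000027334), a nuclear protein with an eIF1A-like domain, had 10.8, 18.3 and 16.9 FPKM in vitrification II, 4.96, 3.97 and 2.40 in vitrification I, 5.59 and 4.81 in vitrification, and 4.39, 3.54 and 5.28 in fresh control. Its vitrification II libraries lay above all others. The rise was 0.96 ± 0.36 (adjusted p = 0.00692) against fresh control and 1.10 ± 0.36 (adjusted p = 0.00169) against vitrification I. EIF2D (ENSSSCG00000015648), which acts in reinitiation and in recycling of the small subunit, had 13.6, 8.72 and 8.72 FPKM in vitrification II, 0, 4.89 and 0.213 in vitrification I, 6.27 and 4.90 in vitrification, and 6.20, 5.79 and 7.83 in fresh control. Replicates 1 and 3 of vitrification I were at or near 0 and replicate 2 was close to vitrification replicate 2. EIF2D changed by -1.91 ± 0.53 (adjusted p = 0.0192) in vitrification I against fresh control, a call that ended without vitrification I replicate 1 or 3, or control 2 or 3 (adjusted p = 0.0507 to 0.0903). Vitrification II exceeded vitrification I by 1.85 ± 0.53 (adjusted p = 0.00221), and with replicate 2 as the single vitrification I library the values were -0.55 and 0.48, neither called (adjusted p = 0.698 and 0.215). EIF1AX, which helps recruit initiator tRNA, EIF2A, an alternative carrier of it, and EIF5B, which joins the subunits, ranged together from 4.91 to 96.5 FPKM and were not called.

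The eIF2 complex and its exchange factor eIF2B, the step at which stress kinases slow initiation, had 6 members tested. Of these 1 was called, higher, in vitrification II against vitrification I (all genes 34.7%). The comparisons against fresh control gave 0 calls by limma, with 0 in vitrification II, 1 in vitrification I and 0 in vitrification at an unadjusted p under 0.05. Of all genes 25.7%, 18.6% and 1.37% were called in these 3 comparisons in either direction. EIF2S1 (ENSSSCG00000033295), the subunit whose phosphorylation these kinases carry out, had 87.6, 133 and 105 FPKM in vitrification II, 65.6, 79.4 and 35.9 in vitrification I, 52.7 and 52.1 in vitrification, and 125, 46.1 and 51.7 in fresh control. Control 1 was within the range of vitrification II, and no comparison was called (adjusted p = 0.104 to 0.757). Without control 1 the change in vitrification II against fresh control was called (adjusted p = 0.0438). EIF2S2, another subunit of eIF2, ranged from 68.9 to 181 FPKM and was not called (adjusted p = 0.0962 to 0.93). EIF2B2, a regulatory subunit of eIF2B, had 42.5, 65.8 and 45.7 FPKM in vitrification II, 8.73, 24.8 and 13.2 in vitrification I, 35.5 and 21.6 in vitrification, and 45.4, 23.3 and 24.4 in fresh control. It was higher in vitrification II than in vitrification I by 1.07 ± 0.42 (adjusted p = 0.00494). EIF2B5, the catalytic subunit, had 7.97, 8.25 and 6.60 FPKM in vitrification II, 9.67, 9.56 and 6.43 in vitrification I, 9.88 and 9.23 in vitrification, and 9.58, 5.12 and 5.42 in fresh control and was not called (adjusted p = 0.536 to 0.782). In vitrification II against vitrification I it was called, lower, after quantile normalization (-0.91, adjusted p = 0.0243) and with equal medians (-0.82, adjusted p = 0.0291). EIF2B3 and EIF2B4, other subunits of eIF2B, ranged from 3.07 to 17.3 FPKM and were not called.

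EIF6 (ENSSSCG00000022864), which keeps the large ribosomal subunit from joining too early, had 161, 194 and 225 FPKM in vitrification II, 82.5, 116 and 50.8 in vitrification I, 129.9 and 74.0 in vitrification, and 221, 112 and 122 in fresh control. Vitrification II exceeded vitrification I by 0.59 ± 0.40 (adjusted p = 0.0199), a call that ended without vitrification II replicate 2 or 3, or vitrification I replicate 3 (adjusted p = 0.0539 to 0.0806). EIF5A2, a copy of the factor eIF5A that eases peptide bond formation at proline stretches, had 2.81, 1.49 and 3.09 FPKM in vitrification II, 0.557, 0.696 and 1.28 in vitrification I, 0.435 and 0.909 in vitrification, and 0.55, 0.252 and 0.208 in fresh control. It was higher in vitrification II than in fresh control by 0.73 ± 0.31 (adjusted p = 0.00707) and than in vitrification I by 0.21 ± 0.31 (adjusted p = 0.0332), and the second call ended without vitrification II replicate 1 or 3, or vitrification I replicate 1 or 2, or control 3 (adjusted p = 0.0513 to 0.109). EIF5A itself was not analysed here.

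The list of elongation factors eEF1 and eEF2, set by symbol, had 4 genes tested, among them EEF1E1. Against fresh control 1 rose in vitrification II (EEF1E1, all genes 24.6%) and 1 fell in vitrification I (EEF1D, 9.77%). In vitrification 0 were called (limma, 1 at an unadjusted p under 0.05). In vitrification II 2 were higher than in vitrification I (34.7%). EEF2 (ENSSSCG00000025675), the translocase, had 259, 164 and 271 FPKM in vitrification II, 89.5, 188 and 99.2 in vitrification I, 328 and 293 in vitrification, and 48.7, 125 and 221 in fresh control. Both vitrification libraries lay above all control libraries, yet the control libraries spread widely, and none of the comparisons was called (adjusted p = 0.124 to 0.91). Without control 3, which was the highest control, EEF2 in vitrification II against fresh control reached an adjusted p of 0.0481. EEF1B2, a nucleotide exchange factor for eEF1A, ranged from 189 to 459 FPKM with all groups overlapping (adjusted p = 0.639 to 0.978). EEF1D, another exchange subunit, had 104, 90.5 and 79.7 FPKM in vitrification II, 34.7, 31.0 and 29.9 in vitrification I, 71.2 and 42.2 in vitrification, and 57.3, 82.4 and 92.3 in fresh control. It changed by -1.16 ± 0.33 (adjusted p = 0.02) in vitrification I against fresh control, which ended without control 2 or 3 (adjusted p = 0.0778 to 0.0989), and by 0.80 ± 0.33 (adjusted p = 0.00338) in vitrification II against vitrification I. EEF1E1, a scaffold of the multi-tRNA synthetase complex, ranged from 14.6 to 55.4 FPKM. It was higher in vitrification II than in fresh control by 0.58 ± 0.38 (adjusted p = 0.0317) and than in vitrification I by 0.31 ± 0.38 (adjusted p = 0.049). Both calls were close to the threshold, and they ended without vitrification II replicate 1, 2 or 3, or control 2 or 3 (adjusted p = 0.0507 to 0.131) for the first and without vitrification II replicate 1, 2 or 3, or vitrification I replicate 1 or 3, or vitrification replicate 1 or 2, or control 2 or 3 (adjusted p = 0.0567 to 0.165) for the second. EEF1A1 and EEF1G were not analysed here.

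Of 5 enzymes that modify the elongation factors 1 fell in vitrification I (all genes 9.77%), and 3 were higher in vitrification II than in vitrification I (34.7%). Limma called 0 in vitrification II and 0 in vitrification against fresh control, with 3 and 0 at an unadjusted p under 0.05. Of all genes 25.7% and 1.37% were called there in either direction. EEF2K, the kinase that inhibits eEF2, had 1.98, 1.47 and 1.66 FPKM in vitrification II, 5.45, 1.27 and 0.952 in vitrification I, 0.858 and 1.24 in vitrification, and 0.067, 0.671 and 0.522 in fresh control. All vitrified libraries lay above all control libraries at low levels, and no comparison was called (adjusted p = 0.0645 to 0.744). Calls arose in vitrification II without vitrification I replicate 1 (adjusted p = 0.0312) and in vitrification I without its replicate 2 or 3 (adjusted p = 0.0391 to 0.0471) or with equal totals outside the mitochondrial genome (adjusted p = 0.0343). Among the lysine methyltransferases of eEF1A, EEF1AKMT4 (ENSSSCG00000054583) had 10.3, 11.9 and 9.92 FPKM in vitrification II, 0.148, 2.85 and 0 in vitrification I, 5.31 and 1.14 in vitrification, and 10.1, 5.81 and 5.72 in fresh control. Vitrification I lay below all control libraries, with replicates 1 and 3 at or near 0. It changed by -2.22 ± 0.52 (adjusted p = 0.00824) in vitrification I against fresh control and by 2.15 ± 0.52 (adjusted p = 0.000827) in vitrification II against vitrification I, and with replicate 2 as the single vitrification I library the values were -1.25 and 1.17, neither called (adjusted p = 0.36 and 0.109). EEF1AKMT1 had 24.0, 19.5 and 19.5 FPKM in vitrification II, 4.40, 7.78 and 2.87 in vitrification I, 9.07 and 8.13 in vitrification, and 13.1, 9.76 and 8.75 in fresh control. Vitrification II lay above all control libraries and vitrification I below them. Neither change against fresh control was called, at 0.32 ± 0.37 and -0.94 ± 0.37 (adjusted p = 0.0696 for each). The difference between these vitrified groups was 1.26 ± 0.37 (adjusted p = 0.00106). EEF1AKMT3 had 1.28, 1.28 and 1.31 FPKM in vitrification II, 0.0209, 0.765 and 0 in vitrification I, 0.434 and 0.469 in vitrification, and 0.484, 0.158 and 0.657 in fresh control. Only its vitrification II libraries reached an FPKM of 1, so it passed the filter through that group alone. It dropped out of the test when any of them was left out. Its call as higher there is in the counts but is not independent of the filter. The relative change in vitrification II against vitrification I was small, 0.23 ± 0.29 (adjusted p = 0.0225). It was not called without vitrification I replicate 1 or 3 (adjusted p = 0.0823 to 0.0865). EEF1AKMT2 ranged from 6.18 to 11.1 FPKM and was not called (adjusted p = 0.722 to 0.899).

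The 3 members below the filter were EEF1A2, EIF4E1B and EIF1AY. EEF1A2, the form of eEF1A known from muscle and nerve, was listed at 0 in every library. EIF4E1B, an eIF4E relative known from oocytes, was at most 0.635 FPKM. EIF1AY (ENSSSCG00000037509) was listed at 29.3, 13.9 and 0 FPKM in vitrification II and at 0 in the 8 other libraries. In mammals that have it, EIF1AY is the copy of EIF1AX on the Y chromosome, which an embryo without a father does not carry. EIF1AX had 62.0, 67.0 and 96.5 FPKM in vitrification II, 54.2, 47.4 and 33.4 in vitrification I, 46.9 and 59.3 in vitrification, and 62.9, 29.8 and 41.3 in fresh control. The copies are close in sequence, and how fragments that match both were counted is not given in the sources used here, so the EIF1AY values are uncertain. Reads could also be shared between EIF4A1 and EIF4A2, or between EIF1 and EIF1B, which was not tested. EIF2S3, EIF2B1, EIF3C, EIF3K and EIF5 were not analysed here.

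Genes that work beside the factors were counted in lists, and the share of all genes called in the same direction stands in brackets after each count. Of 5 genes of the poly(A)-binding proteins and their partners, which link the mRNA tail to eIF4G, 1 rose in vitrification II (24.6%), 3 rose in vitrification I (8.85%) and 2 rose in vitrification (1.25%) against fresh control, and 1 was lower in vitrification II than in vitrification I (3.75%). PABPC4 had 4.37, 2.90 and 2.78 FPKM in vitrification II, 23.7, 37.0 and 27.4 in vitrification I, 27.4 and 34.2 in vitrification, and 5.11, 6.90 and 10.1 in fresh control. It was high in vitrification I and vitrification and low in vitrification II and fresh control, as EIF3F was. Its changes were 1.94 ± 0.36 (adjusted p = 0.00314) in vitrification I and 1.77 ± 0.40 (adjusted p = 0.0296) in vitrification, and -3.48 ± 0.36 (adjusted p = 8.68e-05) in vitrification II against vitrification I. PABPC1, the main form, rose by 1.63 ± 0.35 (adjusted p = 0.00768) in vitrification I and by 2.34 ± 0.39 (adjusted p = 0.0129) in vitrification. PAIP2B, a binding inhibitor of PABP, rose by 0.82 ± 0.35 (adjusted p = 0.00961) in vitrification II and by 1.75 ± 0.35 (adjusted p = 0.00503) in vitrification I. Calls ended for PABPC4 in vitrification without vitrification replicate 2, or control 1, 2 or 3 (adjusted p = 0.0564 to 0.367), for PABPC1 in vitrification without vitrification replicate 2, or control 2 (adjusted p = 0.0688 to 0.0761), and for PAIP2B in vitrification II without control 3 (adjusted p = 0.0507). Scaling ended those of PAIP2B in vitrification II (under 2 of the 3, adjusted p = 0.236 to 0.239) and PABPC4 in vitrification (under 1 of the 3, adjusted p = 0.0671).

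A list around eIF2 phosphorylation held 9 genes, ATF4 and DDIT3 included. Against fresh control 3 rose in vitrification II (24.6%), and 2 rose and 1 fell in vitrification I (8.85% and 9.77%). In vitrification 0 were called (limma, 2 at an unadjusted p under 0.05). In vitrification II 2 were higher than in vitrification I (34.7%). PPP1R15A, the stress-induced subunit that directs the phosphatase to eIF2, had 24.2, 62.9 and 76.3 FPKM in vitrification II, 0.324, 2.40 and 0.951 in vitrification I, 19.1 and 8.76 in vitrification, and 18.9, 5.90 and 6.84 in fresh control. It rose by 1.66 ± 0.53 (adjusted p = 0.00776) in vitrification II and changed by -2.25 ± 0.53 (adjusted p = 0.00923) in vitrification I, and the groups differed by 3.92 ± 0.53 (adjusted p = 4.35e-05). With replicate 2 as the single vitrification I library the change of PPP1R15A there against fresh control was -1.79. PPP1R15B, the constitutive subunit, rose by 1.05 ± 0.41 (adjusted p = 0.0103) in vitrification II and 1.49 ± 0.41 (adjusted p = 0.0274) in vitrification I, and the calls ended without control 2 (adjusted p = 0.0516) and without vitrification I replicate 1 or 3, or control 1 or 2 (adjusted p = 0.0605 to 0.102). EIF2AK3, the kinase PERK of the endoplasmic reticulum, rose by 1.67 ± 0.44 (adjusted p = 0.0193) in vitrification I, which ended without vitrification I replicate 3, or control 2 or 3 (adjusted p = 0.051 to 0.0794). EIF2AK1, the kinase that responds to low haem, rose by 0.53 ± 0.35 (adjusted p = 0.0247) in vitrification II and by 0.49 ± 0.35 (adjusted p = 0.0151) over vitrification I, calls that ended without vitrification II replicate 1, 2 or 3, or control 1 or 3 (adjusted p = 0.0541 to 0.11) and without vitrification II replicate 2 (adjusted p = 0.0532). The scalings ended the calls of PPP1R15A in vitrification II (under 2 of the 3, adjusted p = 0.0882 to 0.0974), PPP1R15B in vitrification II (under 2 of the 3, adjusted p = 0.186 to 0.217), EIF2AK1 in vitrification II (under 3 of the 3, adjusted p = 0.0934 to 0.697) and EIF2AK1 in vitrification II over vitrification I (under 3 of the 3, adjusted p = 0.228 to 0.455).

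On the mTORC1 branch, which acts on the 4E-binding proteins, 10 of 13 listed genes were tested. Of these 2 rose in vitrification II (24.6%), 2 rose and 2 fell in vitrification I (8.85% and 9.77%), and 0 were called in vitrification against fresh control (limma, 3 at an unadjusted p under 0.05), while 6 were higher and 1 lower in vitrification II than in vitrification I (34.7% and 3.75%). LARP1, a repressor of mRNAs that encode ribosomal proteins and factors, had 26.9, 39.3 and 32.2 FPKM in vitrification II, 45.4, 64.9 and 28.9 in vitrification I, 10.3 and 17.9 in vitrification, and 5.17, 5.65 and 5.09 in fresh control. All vitrified libraries lay above all controls, and it rose by 1.79 ± 0.37 (adjusted p = 0.000781) in vitrification II and 2.90 ± 0.37 (adjusted p = 0.000395) in vitrification I, whereas vitrification did not pass (1.03 ± 0.41, adjusted p = 0.132). PDCD4, an inhibitor of eIF4A, rose by 1.47 ± 0.45 (adjusted p = 0.0397) in vitrification I and changed by -2.41 ± 0.45 (adjusted p = 0.00761) in vitrification II against vitrification I. With replicate 2 as the single vitrification I library PDCD4 stood at 0.82 and -1.77 in these comparisons. RPS6KB1, a kinase below mTORC1, rose by 0.99 ± 0.41 (adjusted p = 0.0119) in vitrification II and 0.70 ± 0.41 (adjusted p = 0.016) over vitrification I. MLST8, an mTORC1 subunit, changed by -0.92 ± 0.27 (adjusted p = 0.0215) in vitrification I and was 0.69 ± 0.27 (adjusted p = 0.00145) higher in vitrification II than there. Calls ended for PDCD4 in vitrification I without vitrification I replicate 1 or 3, or control 2 or 3 (adjusted p = 0.0805 to 0.165), for MLST8 in vitrification I without vitrification I replicate 1, or control 2 or 3 (adjusted p = 0.0734 to 0.0778), and for RPS6KB1 without control 2 (adjusted p = 0.0734) and, over vitrification I, without vitrification II replicate 2, or vitrification I replicate 1 or 3 (adjusted p = 0.0509 to 0.0667). Calls lost under other scalings were those of RPS6KB1 in vitrification II (under 2 of the 3, adjusted p = 0.162 to 0.178), RPS6KB1 in vitrification II over vitrification I (under 3 of the 3, adjusted p = 0.179 to 0.232), MLST8 in vitrification I (under 1 of the 3, adjusted p = 0.0507) and MLST8 in vitrification II over vitrification I (under 2 of the 3, adjusted p = 0.0954 to 0.157).

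Of 10 genes of termination, recycling and reinitiation 3 rose in vitrification II against fresh control (24.6%). Limma called 0 in vitrification I and 0 in vitrification against fresh control (0 and 0 at an unadjusted p under 0.05). Of all genes 18.6% and 1.37% were called there in either direction. In vitrification II 4 were higher than in vitrification I (34.7%). ABCE1, which splits ribosomes after termination, had 35.1, 51.1 and 39.9 FPKM in vitrification II, 6.92, 8.90 and 7.13 in vitrification I, 5.56 and 5.00 in vitrification, and 12.9, 2.49 and 5.83 in fresh control. It rose by 2.00 ± 0.44 (adjusted p = 0.00115) in vitrification II and stood 1.62 ± 0.44 (adjusted p = 0.00108) above vitrification I. DDX3X, an RNA helicase of initiation, rose by 1.44 ± 0.47 (adjusted p = 0.00658) and 1.88 ± 0.47 (adjusted p = 0.000809) in the same comparisons, and the release factor ETF1 was higher over vitrification I by 0.52 ± 0.32 (adjusted p = 0.00949). HBS1L, of ribosome rescue, rose by 1.10 ± 0.49 (adjusted p = 0.0199) in vitrification II, which ended without vitrification II replicate 1 or 2, or control 2 or 3 (adjusted p = 0.0531 to 0.112). Other scalings ended the calls of DDX3X in vitrification II (under 2 of the 3, adjusted p = 0.0609 to 0.0621), HBS1L in vitrification II (under 3 of the 3, adjusted p = 0.0532 to 0.205) and ETF1 in vitrification II over vitrification I (under 3 of the 3, adjusted p = 0.192 to 0.346). Among 9 mitochondrial translation factors 1 fell in vitrification I against fresh control (9.77%), and 2 were higher in vitrification II than in vitrification I (34.7%). TUFM, which brings tRNA to mitochondrial ribosomes, had 121, 79.5 and 87.0 FPKM in vitrification II, 23.5, 27.9 and 7.44 in vitrification I, 89.0 and 51.6 in vitrification, and 96.9, 115 and 152 in fresh control. It changed by -2.66 ± 0.44 (adjusted p = 0.00123) in vitrification I against fresh control and by 1.71 ± 0.44 (adjusted p = 0.000948) in vitrification II against vitrification I. MRRF, the mitochondrial recycling factor, was higher in vitrification II than in vitrification I by 0.52 ± 0.45 (adjusted p = 0.045), which ended without vitrification II replicate 1, 2 or 3, or vitrification I replicate 3, or vitrification replicate 1 or 2, or control 2 or 3 (adjusted p = 0.0531 to 0.191). Scaling also ended that of MRRF in vitrification II over vitrification I (under 3 of the 3, adjusted p = 0.326 to 0.487).

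The list of cytosolic aminoacyl-tRNA synthetases, which also holds scaffolds of the synthetase complex, had 21 genes tested. Against fresh control 2 rose in vitrification II (24.6%), and 1 rose and 3 fell in vitrification I (8.85% and 9.77%). In vitrification 0 were called (limma, 4 at an unadjusted p under 0.05). In vitrification II 9 were higher than in vitrification I (34.7%). AIMP2, a scaffold of the synthetase complex, had 24.7, 20.5 and 27.0 FPKM in vitrification II, 0.726, 6.29 and 0.543 in vitrification I, 11.2 and 2.53 in vitrification, and 15.7, 9.87 and 16.1 in fresh control. It changed by -2.38 ± 0.56 (adjusted p = 0.00912) in vitrification I against fresh control and 2.53 ± 0.56 (adjusted p = 0.000637) in vitrification II against vitrification I. FARSA, of phenylalanyl-tRNA synthetase, followed with -2.17 ± 0.46 (adjusted p = 0.00492) and 1.93 ± 0.46 (adjusted p = 0.000673). With replicate 2 as the single vitrification I library AIMP2 stood at -1.20 and 1.34 in these comparisons, and FARSA at -1.80 and 1.55. IARS1, the isoleucyl enzyme, rose by 1.14 ± 0.33 (adjusted p = 0.0024) in vitrification II and 1.09 ± 0.33 (adjusted p = 0.0441) in vitrification I, and the second call ended without vitrification II replicate 1, 2 or 3, or vitrification I replicate 1 or 2, or control 1, 2 or 3 (adjusted p = 0.0602 to 0.128). AARS1, the alanyl enzyme, rose by 0.64 ± 0.41 (adjusted p = 0.0344) in vitrification II, which ended without vitrification II replicate 1, 2 or 3, or control 1 or 2 (adjusted p = 0.0545 to 0.108), and was 1.00 ± 0.41 (adjusted p = 0.00524) higher than in vitrification I. The calls of IARS1 in vitrification II (under 1 of the 3, adjusted p = 0.0689), AARS1 in vitrification II (under 3 of the 3, adjusted p = 0.0537 to 0.59) and AARS1 in vitrification II over vitrification I (under 1 of the 3, adjusted p = 0.152) ended under other scalings. Without the filter on low values the calls of PPP1R15A, AARS1 and HBS1L in vitrification II, of AIMP2, EIF2AK3, PDCD4, PPP1R15A and PPP1R15B in vitrification I, and of MRRF and RPS6KB1 in vitrification II over vitrification I ended (adjusted p = 0.0531 to 0.146). A fit on the groups compared alone ended those of PABPC1 and PABPC4 in vitrification, IARS1 and PDCD4 in vitrification I, and MRRF in vitrification II over vitrification I. Weighting libraries by their spread ended those of AARS1 in vitrification II and MRRF in vitrification II over vitrification I.

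**Figure D4:**
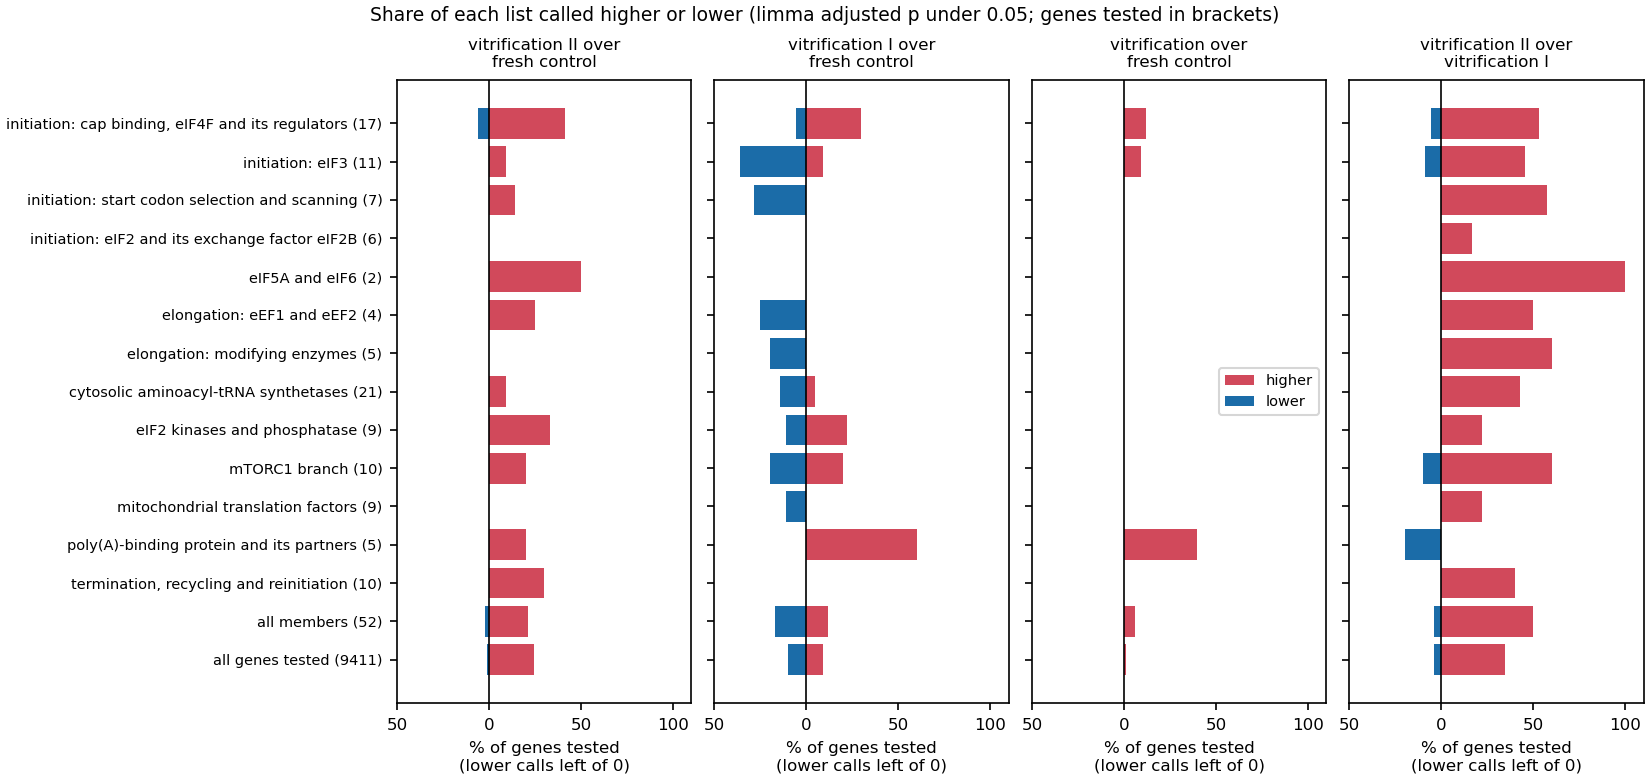
Share of the genes tested that were called higher (right of 0) or lower (left of 0), for each role group of the factors, each list of the surrounding pathway, all members and all genes tested, in the 4 comparisons. Calls are mixed in direction in vitrification I over fresh control (6 members higher and 9 lower) and mostly upward in vitrification II over vitrification I (26 higher and 2 lower).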

How the data were processed

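The deposited table gives FPKM values per Ensembl pig gene and library, made by the authors; FastQC, TopHat2 2.0.13, Cufflinks 2.2.1 and DESeq2 are named in the submitters' processing notes without roles. Genome build, annotation and strand are not given in the sources used here. Columns were matched to samples by library name. The table held 11 of the 12 samples, and the third vitrification library was not analysed here. The labels do not say whether libraries came from separate embryos, so p-values measure the spread between libraries, which may be technical.

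Genes were kept where 3 or more libraries had an FPKM of 1 or more. limma 3.58.1 in R 4.3.3 was fitted to log2(FPKM + 1) of all genes kept, with 1 mean per group, a mean-dependent prior and no further scaling. Tests were two-sided, and p-values were adjusted by Benjamini and Hochberg's method over 9411 genes; the fit was tested on simulated data. A fold change on this scale understates changes of low genes. Members, lists and the genes fixed by name were chosen with earlier results of these data known. Per-library values are given for called members, at most 30 by smallest adjusted p, and for a fixed set, and up to 4 called genes are named per pathway list. Alternatives covered pseudocount, filter, scaling, variance model, samples fitted, replicate number and left-out libraries.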

Additional observations from a re-analysis of the deposited data

How the results depend on the processing

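Members called numbered 12 in vitrification II, 15 in vitrification I and 3 in vitrification against fresh control, 28 in vitrification II against vitrification I, and 26 by the F test over the 4 groups. Leaving out 1 library at a time gave 7 to 13, 10 to 21, 0 to 3, 19 to 29 and 21 to 33. The count in vitrification was 0 without control 2 or vitrification replicate 2 (11 and 7 members at an unadjusted p under 0.05, and 0 and 2 of all genes called) and 1 without control 3 or vitrification replicate 1. Without either vitrification library the 1 left is assumed to vary like the other groups. In vitrification II the count was 7 without control 2 or vitrification II replicate 2. With vitrification I as replicate 2 alone, a single library chosen after seeing the data, the counts were 3 in vitrification I, 5 in vitrification II against vitrification I and 11 by the F test. Quantile normalization gave 4 in vitrification II (7.18% of all genes were called). Equal medians gave 4 in vitrification II, 1 in vitrification and 18 in vitrification II against vitrification I (10.7%, 0.659% and 28.1% of all genes). Equal totals outside the mitochondrial genome gave 17 by the F test (29.5% of all genes). Array weights gave 22 in vitrification II and 6 in vitrification, where 52.6% and 7.19% of all genes were called. Among the genes fixed by name, EEF2K, EIF2S1, EIF4A1 and EIF6 gained a call under array weights in vitrification II. EEF2K, EIF4A1 and MKNK1 gained one in vitrification I, EIF4G1 in vitrification and MKNK2 in vitrification II against vitrification I. A fit on the groups compared alone gave 0 in vitrification (12 at an unadjusted p under 0.05), where limma called 0 of all genes. Without a filter vitrification I had 8, where 3.74% of all genes were called. That setting ended 20 of the 58 calls, and the fit on the groups compared 11. The other settings that kept all libraries stayed within 1.5 times of these counts. The replicate number as a block gave 10, 14, 2, 27 and 26 in the order above, and ended the calls of EIF4G2 in vitrification, EIF3G in vitrification I, EIF4E3 and MKNK1 in vitrification II, EEF1E1 in vitrification II against vitrification I, PABPC4 in vitrification (adjusted p = 0.0559) and IARS1 in vitrification I (adjusted p = 0.0735). Same-numbered libraries deviated from their group means with r from -0.158 to 0.143, above 0.1 in 2 of 15 pairs, so the numbers were not read as pairs. Of the 58 calls 10 held under every alternative run: EIF4G2 and MKNK2 in vitrification II and vitrification I, EIF3F in vitrification I, and EIF1AD, EIF3F, EIF3L, EIF4G2 and EIF4H in vitrification II against vitrification I. The fitted change of no called member reversed in the runs in which it was tested. Of 42 uncalled changes of the genes fixed by name, 22 had the other sign under at least 1 alternative. The cause of these changes was not tested. Over all 9411 genes the counts of calls were 2422, 1752, 129, 3614 and 4016 in the order above, and ranged over the alternatives from 676 to 4954, 242 to 3337, 0 to 677, 785 to 3865 and 2427 to 6154. Unknown depth limits what can be said of members below an FPKM of about 1.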
